A study of Mus musculus with 13 samples.

Results

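DNA barcodes carried by MLL-AF9 leukaemia cells were compared between the spleens of 3 NSG and 3 Ptprca mice. The barcodes described were all those that reached 10 CPM (reads per 1000000 reads of a library) in 2 or more of these 6 spleens, a rule that makes no use of the strain. It kept 307 of the 2505 barcodes in the table, and these held between 95.7% and 99.7% of each spleen library. At the edge of the rule, the second-highest spleen values were 10.1, 10.1 and 10.5 CPM for the nearest 3 barcodes kept and 9.35, 9.24 and 7.88 CPM for the nearest 3 left out. A further 204 barcodes reached 10 CPM in exactly 1 spleen.

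A heritable barcode is a short DNA tag that a virus inserts into the genome of a cell, so that every descendant carries it and the share of a barcode in a tissue follows the share of its clone. MLL-AF9 is a fusion oncogene of acute myeloid leukaemia that turns haematopoietic progenitors into transplantable leukaemia-initiating cells. In mice this leukaemia fills the bone marrow and spreads to the spleen. NSG mice lack mature T, B and natural killer cells, whereas Ptprca names an allele of the gene of the leukocyte antigen CD45 that is usually kept on an immunocompetent C57BL/6 background.

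All groups shared the same starting material, c-Kit-positive progenitors transduced with the SPLINTR barcode library, and the same MLL-AF9 leukaemia. Ptprca mice 1, 2 and 3 and NSG mice 4, 5 and 6 each gave 1 spleen and 1 bone marrow library at the time point labelled disease, and 1 further library was made from the cells at baseline. The labels used here give no age, sex, day of sampling or cell dose. Viable cells were sorted, and no marker gene was measured, so the tissue of a library could not be checked from the data. Values are shares of a library, not cell numbers, so a lower share cannot be told apart from the expansion of other clones.

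Each deposited value was the mean of 2 technical repeats, and the reads of each repeat could be recovered from the steps of the values. The spleen libraries of Ptprca mice 1, 2 and 3 held 5091049, 5226940 and 5252942 reads. Those of NSG mice 4, 5 and 6 all held fewer, at 2640788, 3225751 and 3821789. The lowest level counted as measurable was 3 reads in the repeat with fewer reads. This floor was 0.575 to 0.629 CPM in Ptprca and 0.816 to 1.2 CPM in NSG spleens. The repeats differed more in the NSG spleens than in the Ptprca spleens. For barcodes at 100 to 1000 CPM, the standard deviation (SD) of the log2 ratio of the repeats was 0.30, 0.33 and 0.39 in Ptprca mice 1, 2 and 3 and 2.26, 1.57 and 1.71 in NSG mice 4, 5 and 6. Of the members at 10 CPM or more, 0, 0 and 2 had reads in only 1 repeat in the Ptprca spleens, against 27 of 167, 43 of 189 and 27 of 183 in the NSG spleens. The highest such value was 418 CPM. The part of this difference in the strain comparison was not tested beyond setting those values to 0, so low shares in NSG spleens carry the larger error. Values of 10000 CPM or more, which include GFP_Barcode_52804 in the NSG spleens, were not split into their repeats, so the agreement of the repeats was not looked at for them.

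Of the 307 barcodes, 6 (1.95%) differed between the strains at an adjusted p of 0.05 or less. The test was limma on log2(CPM + 1) with Benjamini-Hochberg adjustment over all 307, and log2 differences are given as NSG minus Ptprca with their standard error (SE). GFP_Barcode_52804 and GFP_Barcode_28531 were higher in NSG spleens. GFP_Barcode_14277, GFP_Barcode_9344, GFP_Barcode_102213 and GFP_Barcode_44375 were lower. At an unadjusted p under 0.05 there were 33 barcodes, 9 higher and 24 lower, and the median log2 difference of all 307 was -0.51. The count of 6 depended on single mice. Leaving out 1 mouse gave 0 calls without mouse 3, 1 without mouse 1, 2 or 4, 2 without mouse 6 and 5 without mouse 5, and no barcode was called when the variance trend of limma was left out.

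GFP_Barcode_52804 was the largest barcode of every NSG spleen. It held 70.7%, 23.7% and 52.0% of the spleens of NSG mice 4, 5 and 6 and 0.317%, 0.184% and 0.361% of the spleens of Ptprca mice 1, 2 and 3. The lowest NSG value was far above the highest Ptprca value. The mean share was 48.8% ± 23.7 (SD, n = 3) in NSG and 0.287% ± 0.0919 (SD, n = 3) in Ptprca spleens, a ratio of means of 169.7, and the log2 difference was 7.32 (SE 1.03, limma adjusted p = 0.00015). Its adjusted p was 0.0538 without mouse 3 and 0.154 without the variance trend, and it stayed under 0.05 in 15 of the 17 alternatives in which it could be tested. At baseline the barcode was no more than a minor one, at 0.056% (95% Wilson interval 0.054% to 0.0582%, counting error only), rank 323 of all barcodes.

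GFP_Barcode_28531 was seen in the NSG spleens alone. It was at 0 in all 3 Ptprca spleens and held 0.0368%, 0.923% and 0.484% of the spleens of NSG mice 4, 5 and 6. The mean NSG share was at least 8085-fold higher than the mean floor of the Ptprca libraries (3 reads in the shallower repeat), and at least 4375-fold higher without mouse 5. The log2 difference was 11.31 (SE 2.67, limma adjusted p = 0.0225), which depends on the pseudocount. Leaving out any 1 mouse raised its adjusted p to between 0.0886 and 0.224, and it passed in 9 of 18 alternatives. At baseline GFP_Barcode_28531 ranked 13 with 1.03% of the reads (95% Wilson interval 1.02% to 1.04%).

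GFP_Barcode_14277 was a large clone of every Ptprca spleen and a trace in the NSG spleens. It held 10.1%, 12.5% and 3.45% of the spleens of Ptprca mice 1, 2 and 3, against 0.0273%, 0.0295% and 0 in NSG mice 4, 5 and 6. The groups did not overlap, and the mean Ptprca share was 458.8 times the mean NSG share. The log2 difference was -10.77 (SE 1.88, limma adjusted p = 0.00172). Its adjusted p was above 0.05 without mouse 1 (0.185), 2 (0.246), 3 (0.2) or 4 (0.0939), and it passed in 11 of 18 alternatives.

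GFP_Barcode_9344 held 0.381%, 0.684% and 3.98% of the 3 Ptprca spleens and was at 0 in NSG mice 4 and 6. Its 0.00797% in NSG mouse 5 came from 259 reads in the deeper repeat and 0 in the other. The log2 difference was -11.19 (SE 2.24, limma adjusted p = 0.00627), and the adjusted p was above 0.05 without any 1 mouse other than mouse 5, at 0.0899 to 0.246, with 11 of 18 alternatives passed. GFP_Barcode_102213 held 0.837%, 3.64% and 0.301% of the Ptprca spleens. In NSG mouse 4 it was a single read in 1 repeat (0.36 CPM), in mouse 5 it was 0.0637%, and in mouse 6 it was at 0. The groups were separate for both barcodes. For GFP_Barcode_102213 the log2 difference was -9.99 (SE 2.34, limma adjusted p = 0.0225), and without any 1 mouse other than mouse 5 the adjusted p was 0.205 to 0.363, with 7 of 18 alternatives passed.

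GFP_Barcode_44375 was lower in NSG spleens and nearly level among them. It held 1.61%, 4.62% and 2.82% of the spleens of Ptprca mice 1, 2 and 3, and 0.0919%, 0.0880% and 0.0909% of those of NSG mice 4, 5 and 6. The mean was 3.02% ± 1.52 (SD, n = 3) in Ptprca and 0.0902% ± 0.00204 (SD, n = 3) in NSG. The even NSG means hid uneven repeats, at 1337 and 500.2 CPM in mouse 4, 547 and 1213 CPM in mouse 5, and 1013 and 805 CPM in mouse 6. The log2 difference was -4.93 (SE 1.27, limma adjusted p = 0.0454). The difference passed in 5 of 18 alternatives. The call was lost on leaving out any 1 of the 6 mice, with adjusted p from 0.0510 to 0.246, and on shares without GFP_Barcode_52804 the difference was -3.87 (adjusted p = 0.204).

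GFP_Barcode_52804 lowers the share of every other barcode in the NSG spleens, because the shares of a library sum to the whole. Leaving it out raised all other shares 3.41-fold in NSG mouse 4, 1.31-fold in mouse 5 and 2.08-fold in mouse 6, and 1.00-fold in each Ptprca spleen. The median log2 difference of all barcodes then moved from -0.51 to 0.12, and it was 0.14 on centred log-ratios. Of 6 calls on centred log-ratios, 3 were higher in NSG and 3 lower. The direction of the median over all members thus turned with the scaling.

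GFP_Barcode_117983 was the largest barcode over the Ptprca spleens and differed widely among the NSG spleens. It held 12.4%, 18.7% and 36.7% of the spleens of Ptprca mice 1, 2 and 3. In NSG mouse 5 it reached 5.89%, the third-ranked barcode there, and in mouse 6 it was 0.251%. In NSG mouse 4 it was 2 reads in 1 repeat, or 0.799 CPM. All Ptprca values lay above all NSG values, but the log2 difference of -8.31 (SE 2.26) missed the threshold with a limma adjusted p of 0.0538. It passed in 2 of 18 alternatives, among them the fit without mouse 5, at -11.57 (adjusted p = 0.00115). Without mouse 4 it was -4.07 (adjusted p = 0.251), and without any other mouse the adjusted p was 0.214 to 0.470.

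The other barcodes that led the Ptprca spleens fell into those high in each mouse and those high in a single mouse. GFP_Barcode_98919 held 10.2%, 3.56% and 15.4% of the Ptprca spleens and 0.764%, 0.687% and 1.65% of the NSG spleens, a log2 difference of -3.11 (SE 1.07, limma adjusted p = 0.188). GFP_Barcode_39453 held 4.08%, 4.49% and 5.89% in Ptprca and 0.0244%, 0.473% and 1.75% in NSG, a log2 difference of -4.12 (SE 1.39, limma adjusted p = 0.175). Neither passed the test, although the groups did not overlap for either of them.

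GFP_Barcode_113284 was the largest barcode of Ptprca mouse 1 and held little elsewhere. It made up 27.7% of that spleen, 0.340% and 0.0226% of those of Ptprca mice 2 and 3, and 0.00828%, 0 and 0.136% of those of NSG mice 4, 5 and 6. Its log2 difference was -6.94 (SE 2.53, limma adjusted p = 0.245), and -4.18 without mouse 1. GFP_Barcode_43077 held 10.2% of the spleen of Ptprca mouse 2 and no more than 0.422% of any other spleen. GFP_Barcode_72631 held 9.17% of that same spleen and no more than 0.507% elsewhere. Each of these expansions belonged to 1 mouse, and the strains overlapped.

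GFP_Barcode_12212 gave the largest rise over baseline among the 11 barcodes that reached 5% of a spleen. It held 8.98% of the spleen of Ptprca mouse 1 and 0.321% of that of mouse 2, and was at 0 in Ptprca mouse 3 and in all 3 NSG spleens. At baseline it was 13 reads, 0.000266% (95% Wilson interval 0.000152% to 0.000446%). In the bone marrow of Ptprca mouse 1 it was 0.0471%, so the spleen share was 190.8 times the marrow share of the same animal. With 1 Ptprca spleen at 0, its groups overlapped.

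Below GFP_Barcode_52804, most leading barcodes of the NSG spleens were several-fold higher in 1 NSG mouse than in the others. GFP_Barcode_18532 held 18.4% of the spleen of NSG mouse 5, 0.255% and 0.773% of those of mice 4 and 6, and 0.715%, 0.884% and 0.685% of the Ptprca spleens. Its log2 difference of 1.02 (SE 1.40, limma adjusted p = 0.837) turned to -0.77 without mouse 5. GFP_Barcode_52357 held 15.6% of the spleen of NSG mouse 6, 1.42% and 1.11% of those of mice 4 and 5, and 1.78%, 0.481% and 1.13% of the Ptprca spleens. The log2 difference was 1.56 (SE 1.23, limma adjusted p = 0.541), and 0.34 without mouse 6.

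GFP_Barcode_44971, GFP_Barcode_22403, GFP_Barcode_44771 and GFP_Barcode_22615 were all highest in NSG mouse 5, at 4.14%, 4.43%, 4.32% and 4.40%. In NSG mice 4 and 6 these 4 barcodes ran from 0.0232% to 1.11%. GFP_Barcode_101924 was an exception, with 2.48% and 2.51% in NSG mice 4 and 5 and 0.0760% in mouse 6. The Ptprca values of all 5 overlapped with the NSG values.

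GFP_Barcode_69276 was large in both strains. It held 1.63%, 3.86% and 4.67% of the Ptprca spleens and 4.88%, 0.774% and 2.54% of the NSG spleens. Among barcodes present in all 6 spleens its lowest value was the highest. The log2 difference of -0.54 (SE 1.11, limma adjusted p = 0.931) was 0.53 on shares without GFP_Barcode_52804, 0.12 on centred log-ratios and 0.19 without mouse 5, so its direction was not settled.

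Most of the 307 barcodes were found in both strains. The rule favours this, as it left out the 204 barcodes that reached 10 CPM in exactly 1 spleen and so in 1 strain. Of the 307, 70 were at 10 CPM or more in all 6 spleens, 249 were so in at least 1 spleen of each strain, 37 in Ptprca spleens alone and 21 in NSG spleens alone. The 70 barcodes of all 6 spleens held 34.9%, 56.5% and 47.8% of the Ptprca libraries and 91.3%, 79.4% and 88.7% of the NSG libraries, GFP_Barcode_52804 included. Their median log2 difference was -0.24, with 34 above 0 and 36 below. Among the 70, 2 passed the limma test, GFP_Barcode_52804 and GFP_Barcode_44375.

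Barcodes of a single strain were mostly small. The 37 of Ptprca spleens alone held 9.66%, 1.46% and 1.18% of the Ptprca libraries, and in mouse 1 nearly all of this was GFP_Barcode_12212. The 21 of NSG spleens alone held 1.5%, 2.27% and 1.95% of the NSG libraries. Of the 37, 34 were at exactly 0 in all NSG spleens, and 35 reached 10 CPM in a Ptprca bone marrow and 16 in an NSG bone marrow. Of the 21, 14 were at exactly 0 in all Ptprca spleens, and 19 reached 10 CPM in an NSG bone marrow and 6 in a Ptprca bone marrow. A barcode missing from the spleens of a strain was thus in some cases present in its marrow. Every NSG spleen library had fewer reads than every Ptprca one, so the counts at exactly 0 are not on equal terms.

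The largest barcodes at 10 CPM or more in all 3 Ptprca spleens and at 0 in all NSG spleens were GFP_Barcode_82925, GFP_Barcode_58165, GFP_Barcode_10910, GFP_Barcode_117785 and GFP_Barcode_12922. GFP_Barcode_82925 led with 0.111%, 0.209% and 0.00761%, a mean at least 1112-fold above the NSG floor and at least 604-fold without mouse 2. The other 4 had bounds of at least 403, 346, 203 and 198-fold, in the order named. For GFP_Barcode_10910 the bound fell to 76.0-fold without mouse 3, and for GFP_Barcode_58165 to 236-fold without mouse 2. In the opposite direction GFP_Barcode_50242 was at 0 in all Ptprca spleens and held 0.00362%, 0.0152% and 0.999% of the NSG spleens. Its mean was at least 5698-fold above the Ptprca floor, and at least 158-fold without mouse 6. None of these 6 passed the test, with limma adjusted p from 0.154 to 0.359.

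The 2 strains did not overlap for 55 of the 307 barcodes (17.9%), with every NSG spleen higher for 15 and every NSG spleen lower for 40. These counts were made on the deposited shares, which GFP_Barcode_52804 lowers in NSG spleens, and were not redone without it. For a single barcode, full separation of 3 against 3 mice goes with an exact permutation p of no less than 0.1. Among the 249 barcodes of both strains, 12 were higher and 24 lower. Among the 37 of Ptprca spleens alone, 16 were lower, and among the 21 of NSG spleens alone, 3 were higher, as far as that choice allows. GFP_Barcode_113643 was the nearest to the threshold among barcodes higher in NSG. It held 1.44%, 0.848% and 0.307% of the NSG spleens and 0.00195%, 0.00182% and 0.0660% of the Ptprca spleens. Its log2 difference was 6.82 (SE 1.83, limma adjusted p = 0.0538).

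Of the large clones, 6 recurred in all Ptprca spleens and 2 in all NSG spleens on the deposited shares. At 1% or more of a spleen there were 42 barcodes in either strain, 26 in Ptprca and 23 in NSG, and 7 reached it in both. All but 2 of the 42 were among the 307, and the exceptions were in NSG spleens. In Ptprca spleens 16 of the 26 did so in 1 mouse, 4 in 2 and 6 in all 3. In NSG spleens 17 of the 23 did so in 1 mouse, 4 in 2 and the rest in all 3. The 6 in every Ptprca spleen were GFP_Barcode_14277, GFP_Barcode_39453, GFP_Barcode_44375, GFP_Barcode_69276, GFP_Barcode_98919 and GFP_Barcode_117983, and the pair in every NSG spleen were GFP_Barcode_52357 and GFP_Barcode_52804. The 1% cut was applied to shares that GFP_Barcode_52804 lowers in NSG spleens, and the counts were not redone without it. On shares without it, GFP_Barcode_69276 also passed 1% in every NSG spleen, at 16.6%, 1.01% and 5.30%. The contrast in recurrence thus depends on the scaling.

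The 10 largest barcodes of each spleen also varied in how far they recurred. From these lists, 6 barcodes were common to the 3 Ptprca mice out of 17 in any of them, and 1 was common to the 3 NSG mice out of 22, of which 2 were not among the 307. Pairs of Ptprca mice shared 6, 7 and 6 of their 10 largest, pairs of NSG mice 4, 3 and 2, and pairs across strains from 1 to 5. These counts are a description, and the difference between the strains in sharing was not tested. The spread between the spleens of a strain, as the median SD of log2 values, was 2.54 in Ptprca and 3.27 in NSG over all members. Over the 70 barcodes of all 6 spleens it was 1.33 and 1.37. This spread includes the error of the repeats, which was larger in NSG spleens.

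The effective number of barcodes, computed as exp(H) with H the Shannon entropy of the library, did not differ between the strains beyond the spread between mice. It was 17.2, 23.5 and 15.8 in Ptprca mice 1, 2 and 3 and 5.24, 25.7 and 9.78 in NSG mice 4, 5 and 6. The lowest and the highest values were both from NSG mice. The difference in means was -5.25 (two-sided exact permutation test p = 0.5, adjusted p = 0.7 over a family of 7 measures). It was -1.08 without mouse 4, -2.90 without mouse 2, -3.35 without mouse 6 and -11.3 without mouse 5. With 3 mice a side this exact test cannot go below p = 0.1.

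Leaving out GFP_Barcode_52804, the leading barcode of the NSG spleens and a minor barcode of the Ptprca spleens, raises the effective number in NSG by construction. The values were then 17.0, 23.3 and 15.5 in Ptprca and 35.9, 34.3 and 27.4 in NSG spleens, a difference of 13.9 in the means (exact permutation p = 0.1, adjusted p = 0.7), and 3.92 (exact permutation p = 0.2) by the inverse Simpson index. When each spleen instead lost its own largest barcode, a choice made after seeing the data, the values were 22.5, 26.9 and 27.5 in Ptprca and 35.9, 34.3 and 27.4 in NSG. The strains then overlapped at NSG mouse 6, with a difference of 6.90 (exact permutation p = 0.2). In bone marrow the full libraries gave 64.4, 69.0 and 64.5 in Ptprca and 43.8, 41.4 and 41.5 in NSG mice, all lower in NSG. Without GFP_Barcode_52804 the marrow values overlapped, at 63.9, 68.5 and 64.0 against 68.4, 53.8 and 52.7.

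The other measures per library, as defined here, overlapped between the strains. Ptprca spleens held 240, 237 and 238 barcodes at 10 CPM or more, and NSG spleens 192, 243 and 217 (exact permutation p = 0.4). With values of 1 repeat set to 0 these became 240, 235 and 225 against 149, 179 and 176, and at 1 CPM or more 307, 284 and 276 against 202, 248 and 233. Every NSG spleen was below every Ptprca spleen under both (exact permutation p = 0.1 each). The first change removes values almost only from NSG spleens, with 27, 43 and 27 members in 1 repeat only against 0, 0 and 2 in Ptprca. The second lies near the floor of the shallower NSG libraries, 0.816 to 1.2 CPM against 0.575 to 0.629 CPM in Ptprca. The part of repeats and depth in these separations was not tested. The difference in means of -21.0 at 10 CPM was -8.33 without mouse 4 and -33.8 without mouse 5. The largest barcode held 27.7%, 18.7% and 36.7% of the Ptprca spleens and 70.7%, 23.7% and 52.0% of the NSG spleens (exact permutation p = 0.3). The difference in means was 21.1 percentage points, 10.2 without mouse 4 and 33.7 without mouse 5. The number at 1000 CPM or more was 51, 64 and 57 against 37, 79 and 57 (exact permutation p = 1). The 10 largest barcodes held 80.1%, 74.7% and 79.0% against 88.0%, 70.7% and 82.4% (exact permutation p = 0.8). The number at 1% or more was 13, 16 and 13 against 8, 13 and 10 (exact permutation p = 0.3). The adjusted p over the 7 measures was at least 0.7 for each of these 5.

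In the bone marrow of the same mice, 4 of the 364 barcodes tested there (1.10%) differed between the strains by limma. All 4 were among the 307 spleen barcodes, as were 282 of the 364. The median log2 difference in marrow was 0.96. GFP_Barcode_52804 was higher in NSG marrow, at 23.4%, 18.7% and 17.9% against 0.262%, 0.269% and 0.266%, a log2 difference of 6.22 (limma adjusted p = 0.0002). GFP_Barcode_44375 was lower there, at 0.0496%, 0.0706% and 0.0172% against 3.32%, 4.37% and 3.67%, a log2 difference of -6.58 (limma adjusted p = 0.0109). These are the same direction as in the spleen for both barcodes. Leaving out a mouse gave 1 to 6 marrow calls, with 1 without mouse 2, 3 or 4 and 2 without mouse 5 or 6.

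The remaining marrow calls, GFP_Barcode_24738 and GFP_Barcode_122306, were named after their values were seen. GFP_Barcode_24738 held 1.61%, 3.38% and 2.18% of Ptprca and 0.139%, 0.140% and 0.104% of NSG marrow, and 0.513%, 1.46% and 0.756% of Ptprca and 0.0647%, 0.0901% and 0.151% of NSG spleens. GFP_Barcode_122306 held 1.27%, 1.24% and 1.05% of Ptprca and 0.0102%, 0.0189% and 0.00579% of NSG marrow, and 0.0245%, 0.127% and 0.0739% of Ptprca and 0.00188%, 0.00212% and 0.00581% of NSG spleens. Both were lower in every NSG library of either organ. Neither passed in the spleen (limma adjusted p = 0.359 and 0.411).

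The other 4 barcodes called in the spleen did not pass in the marrow. GFP_Barcode_28531 was the closest, with 0.0239%, 0.611% and 1.42% in NSG marrow against 0.000349%, 0 and 0 in Ptprca marrow (limma adjusted p = 0.0619). GFP_Barcode_102213 held 3.00%, 0.729% and 1.52% of Ptprca and 0.0339%, 0.138% and 0.230% of NSG marrow (limma adjusted p = 0.105). GFP_Barcode_14277 held 0.0853%, 2.54% and 0.165% of Ptprca and 0.00562%, 0.0851% and 0.0144% of NSG marrow (limma adjusted p = 0.304). GFP_Barcode_9344 held 1.97%, 0.137% and 1.14% of Ptprca and 0.641%, 0.642% and 0.156% of NSG marrow, where the strains overlapped (limma adjusted p = 0.790).

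No strain difference could be called particular to the spleen. The strain by organ interaction, the spleen difference minus the marrow difference, passed for 0 of 389 barcodes (0%) in limma, with 17 at an unadjusted p under 0.05, 1 higher and 16 lower. Taken within each mouse, the interaction again passed for 0, with 26 at an unadjusted p under 0.05. In the first fit, which did not pair the organs by mouse, the limma adjusted p was 0.251 for GFP_Barcode_9344 and 0.997 for the other 5 spleen calls. Of the 55 barcodes whose spleen values did not overlap, 20 were also separate in the marrow in the same direction. A further 34 overlapped in the marrow and 1 was separate in the opposite direction. The share separate in the marrow among the other spleen barcodes was not counted. Whether 20 of 55 exceeds that share is therefore not known, and no agreement between the organs is drawn from it.

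Some clones held far more of the spleen than of the marrow of the same animal. For GFP_Barcode_117983 the spleen share was 55.1, 20.4 and 72.0 times the marrow share in Ptprca mice 1, 2 and 3, and 16.7 and 6.69 times in NSG mice 5 and 6. In NSG mouse 4 the ratio was 0.000332. For GFP_Barcode_14277 it was 117.9, 4.94 and 20.9 in Ptprca and 4.86, 0.346 and 0 in NSG. GFP_Barcode_52804 was less tilted, at 1.21, 0.685 and 1.36 in Ptprca and 3.01, 1.27 and 2.91 in NSG. Over the 307 barcodes, Spearman's rho between the spleen and the marrow of an animal was 0.876, 0.857 and 0.894 in Ptprca and 0.567, 0.611 and 0.621 in NSG. These correlations run across barcodes of 1 animal, which are not independent, and the NSG spleens are those with uneven repeats.

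Nearly all of the 307 barcodes, and most of the others, were also measured at baseline. Of the 307, 297 were at 10 CPM or more at baseline and 2 were at 0. Of the other 2198 barcodes, 1464 were at 10 CPM or more. The median was 394 CPM for the 307 against 30.5 CPM for the other 2198. The 307 held 46.7% of the baseline library and made up 16.9% of the 1761 barcodes at 10 CPM or more there. Across the 307 barcodes Spearman's rho between baseline and mean spleen level was 0.179 in Ptprca and 0.425 in NSG. The baseline is 1 library, so it has no replicate error.

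The 5 members largest at baseline ranked 1, 3, 4, 6 and 8 of all barcodes there, and each held under 1% of every spleen. GFP_Barcode_27492 held 5.29% of the baseline (95% Wilson interval 5.27% to 5.31%), 0.0232%, 0.0250% and 0.0145% of the Ptprca spleens and 0.121%, 0.195% and 0.478% of the NSG spleens. GFP_Barcode_132107 held 4.68% at baseline (4.66% to 4.70%), 0.0170%, 0.0207% and 0.00979% of the Ptprca spleens and 0.111%, 0.183% and 0.556% of the NSG spleens. Both were higher in all NSG spleens, without passing the test (limma adjusted p = 0.411 and 0.359). GFP_Barcode_86249, at 2.15% of the baseline (2.14% to 2.16%), held 0.00303%, 0 and 0 of the Ptprca spleens and 0, 0 and 0.0432% of the NSG spleens. GFP_Barcode_40350, at 1.30% (1.29% to 1.31%), was above 0 in 1 spleen of each strain, at 0.0265% in Ptprca mouse 3 and 0.00495% in NSG mouse 6. GFP_Barcode_36463, at 1.53% (1.52% to 1.54%), was in all 6 spleens, at 0.0582% to 0.683%.

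Some barcodes kept a nearly constant ratio to each other. Of 5962 pairs among the 121 barcodes common enough to compare (both reaching 50 CPM in 9 or more of the 13 libraries), 5 pairs did so, with an SD of the log2 ratio under 0.3. The next pair had 0.499, and the median over all pairs was 2.57. This comparison was added after the values had been seen. GFP_Barcode_27492 and GFP_Barcode_132107, the baseline leaders above, were such a pair, with a mean ratio of 1.11. GFP_Barcode_7083 was 0.126 times GFP_Barcode_69276, and GFP_Barcode_38818 was 0.335 times GFP_Barcode_113643. The remaining pairs were GFP_Barcode_618 with GFP_Barcode_117016 and GFP_Barcode_2713 with GFP_Barcode_81016, at mean ratios of 5.73 and 1.23. For the latter the ratio covers 10 libraries and no NSG spleen. In NSG mice 4, 5 and 6 GFP_Barcode_2713 was at 7.92, 37.8 and 26.4 CPM and GFP_Barcode_81016 at 26.0, 104.3 and 7.34 CPM, where the ratio was not kept. Both members of each pair are among the 307, and whether a pair marks a single clone was not tested.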

How the data were processed

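Barcodes of sorted viable cells were amplified from split lysates and sequenced, per the labels' protocols. Bowtie 1.2.2 and R 3.6 appear in the submitters' processing notes, with settings not given in the sources used here. CPM values were deposited by the authors for 2505 barcodes in 13 libraries, each summing to 1000000. Values were means of 2 repeats: reads of both were recovered for 1627 of 1630 spleen values above 0 and under 10000 CPM, and larger values were not resolved. Because unequal repeats were averaged, no count model was fitted.

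The fit over the 6 spleens took all 307 barcodes as log2(CPM + 1) values into limma 3.58.1 (R 4.3.3; eBayes with its trend option; Benjamini-Hochberg threshold 0.05). The marrow fit (364 barcodes) used the same filter in its own libraries. The interaction, over 12 libraries, took the 389 barcodes that passed this filter in the spleen or in the marrow. Measures per library used exact permutation tests (Python 3.11.15, scipy 1.17.1). P-values measure the spread between the libraries of different mice, which includes the error of the repeats. Spleen and marrow of a mouse pair by animal, with a consensus correlation of 0.463 for the mouse.

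Named barcodes were those called, the 10 highest by mean in each strain, the 5 with the highest minimum among those in all 6 spleens, up to 5 per direction seen in all 3 spleens of a strain and at 0 in the other, and the 5 highest at baseline. Members and lists were chosen with earlier results of these data known. Alternatives covered the pseudocount, filter, scaling, variance prior, repeats, the mouse as a block and leaving out each mouse. Tested on simulated data of 307 barcodes with 20 changed per size, the spleen fit recovered 0, 6 and 14 at log2 changes of 4, 8 and 12, with 2 false calls. The simulated log2 values were normal, with the same SD in both strains for a barcode and no floor at 0. Real spleens had values at 0 and noisier NSG repeats, so these counts do not give the power or error of the real comparison.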

Additional observations from a re-analysis of the deposited data

Results flagged for a closer look

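GFP_Barcode_75057 differed between the organs in the direction of the strain difference. It was at 11.0, 14.8 and 76.5 CPM in the Ptprca spleens and at 0, 0.312 and 0 CPM in the NSG spleens. In bone marrow it was at 6.31, 58.0 and 6.70 CPM in Ptprca and at 287, 479 and 480 CPM in NSG mice. Every NSG mouse was thus lower in the spleen and higher in the marrow than every Ptprca mouse. The interaction was -9.24 on the log2 scale (SE 3.32, limma adjusted p = 0.776; with the mouse as a block SE 2.21, adjusted p = 0.278), so it did not pass the correction. This barcode was singled out after its values were seen, from the 55 whose spleen values did not overlap.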

How the results depend on the processing

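The count of 6 spleen calls was 12 with a pseudocount of 10 CPM, 1 with 0.1 CPM, 0 without the variance trend (38 at an unadjusted p under 0.05) and 2 with values of 1 repeat set to 0. Leaving out 1 mouse gave 0 to 5. Under the other filters and scalings and with robust empirical Bayes it was 4 to 7. With the mouse as a replicate block over 12 libraries it was 6, the same barcodes. A filter counted on values seen in both repeats, chosen after seeing the data, also gave 6. None of the 6 changed direction. The 4 marrow calls became 13 with a filter of 100 CPM and 17 without the trend, and 1 to 6 without a mouse. The interaction gave 0 in each alternative run. GFP_Barcode_69276 turned from -0.54 to 0.12 on centred log-ratios and 0.53 without the most abundant barcode, and ran from -1.14 to 0.19 without a mouse. GFP_Barcode_18532 ran from -0.77 to 2.32 without a mouse. The strain difference in the effective number was -5.25 in spleen and -23.7 in marrow, so the paired analysis (spleen minus marrow within each mouse) gave 18.5 (exact permutation p = 0.1). The difference in barcodes per spleen was -21.0 at 10 CPM, 15.0 at 100 CPM, -61.3 at 1 CPM and -65.3 with values of 1 repeat set to 0. In marrow the strain difference at 10 CPM was 73, with means of 315 in NSG and 242 in Ptprca. Spleen minus marrow within each mouse therefore gave -94.0, which is not a difference between spleens. The cause of the other changes was not tested. Depth limits values near 1 CPM, and in NSG spleens the repeats also disagree at 1000 to 10000 CPM, with an SD of their log2 ratio of 0.64, 0.56 and 0.52 against 0.09, 0.13 and 0.22 in Ptprca spleens.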
